A study of Mus musculus with 12 samples.

Results

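The transcripts of heat shock proteins, chaperonins and their partners in protein folding were examined in normal intestine and in intestinal tumors of Min/+ mice. A member was any probe set whose annotation gave 1 gene symbol that began with Hspa, Hspb, Hspd, Hspe, Hsph, Hsp90, Dnaj or Pdia, or with Cct and a digit, or that was Tcp1, P4hb, Calr or Canx. This rule took 90 of the 12488 probe sets on the array, for 63 of the 8251 genes with a probe set of their own symbol. By the known site of the protein, 42 of the genes were placed in the cytosol or nucleus, 6 in mitochondria and 14 in the endoplasmic reticulum (ER), and 1, Dnajc4, was left unplaced. The prefix also took Hspbp1, a factor that makes Hsp70 release its nucleotide, and Hspb11, a protein of intraflagellar transport that is not a chaperone. A further 2 probe sets with a matching prefix name several genes and were left out, and Hsp90ab1 had no probe set of its own symbol.

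Chaperones bind proteins that are not yet folded, or that have come unfolded, and keep them from sticking together. Hsp70 proteins hold short hydrophobic stretches under the control of Hsp40 (Dnaj) partners and of exchange factors such as the Hsp110 proteins, Hsp90 finishes signalling proteins, and chaperonins enclose a chain in a barrel: the Cct and Tcp1 subunits build the cytosolic barrel that folds actin and tubulin, and Hspd1 with its lid Hspe1 builds the mitochondrial barrel. In the ER, Hspa5 and Hsp90b1 are the local Hsp70 and Hsp90, calnexin and calreticulin hold glycoproteins, and disulfide isomerases (the Pdia genes and P4hb) form the bonds of secreted proteins, which intestinal goblet and Paneth cells make in bulk.

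RNA came from male mice, 91 days old, all of which carried the Min allele of Apc and so form intestinal adenomas. The 12 samples, each on 1 Affymetrix MG_U74Av2 array, comprised 6 of normal intestine and 6 of tumor, each tissue with 3 numbered diets whose contents the labels do not give and, within a diet, with 1 Dnmt+/- (heterozygous) and 1 Dnmt+/+ (wild type) sample. Which Dnmt gene was altered is not said. They give a code to each of the 6 combinations of diet and genotype, shared by its normal and its tumor array, but leave unsaid whether each sample is an animal of its own; a p-value here therefore reflects only how much these samples vary, which may be technical. The tissue was bulk, and fewer cells of a type and less RNA per cell cannot be told apart in it.

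The deposited intensity of the 4 arrays of diet 1 averaged 306 to 403 and had a floor of 50, which 40.9% to 46.0% of probe sets shared on each array, while the 8 other arrays had a mean of 1000 and no such floor. Diet 1 and this file format cannot be told apart. Both normal arrays of diet 2 stood apart in another way: their summed level of 16 exocrine pancreas genes was 295855 and 332397, while the 4 remaining normal arrays had 35814 to 60035 and the tumor arrays 31156 to 43427. Values below are intensities after quantile normalization, raised to a floor of 44.8, and differences are on the log2 scale with the standard error of the limma fit. Of the 90 probe sets, 72 (54 genes) were bright enough to be tested among 7453 features. The 9 genes without a tested probe set were Calr, Hspa1l, Hspa2, Hspb1, Dnajb3, Dnajb4, Dnajb5, Dnajb8 and Dnajc11. The calreticulin probe set read at a floor on 12 of 12 arrays, and on these arrays Calr therefore has no measured level.

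The first comparison asked which chaperone transcripts differed between tumor and normal intestine. Chaperone transcripts were more often higher than lower in tumor. Those higher included 6 of 9 tested subunit genes of the cytosolic chaperonin, 3 of 4 cytosolic Hsp70 genes, the cytosolic Hsp90 gene Hsp90aa1 and 4 of 5 disulfide isomerase genes of the ER. Of the 72 probe sets, 28 (23 genes) were higher in tumor and 5 (4 genes) were lower at a limma adjusted p under 0.05, and 39 did not pass. That is 38.9% higher and 6.94% lower, where 17% of all features were higher and 16.5% lower, and 33.5% passed in either direction. The median difference of the 72 was 0.27 against -0.0084 over all features. The differences of 3 members passed with more than a 2-fold change, Hspa1b, Hspa1a and Pdia5, as did those of 615 of the 7453 features. Each of these 3 had 1 normal array at a floor, and without it the differences of Hspa1a (0.88) and Pdia5 (0.86) were under 2-fold. Of the 33 that passed, 28 pointed the same way in each of the 6 code pairs. The 33 were picked by the test on these same arrays, which favours such agreement. The share among all 2497 features that passed was not counted. All 6 tumor arrays lay above all 6 normal arrays for 5 members, close to the 5.82% of all features that did so, and for 0 members did all tumor arrays lie below (4.78% of all features).

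**Figure D1:**
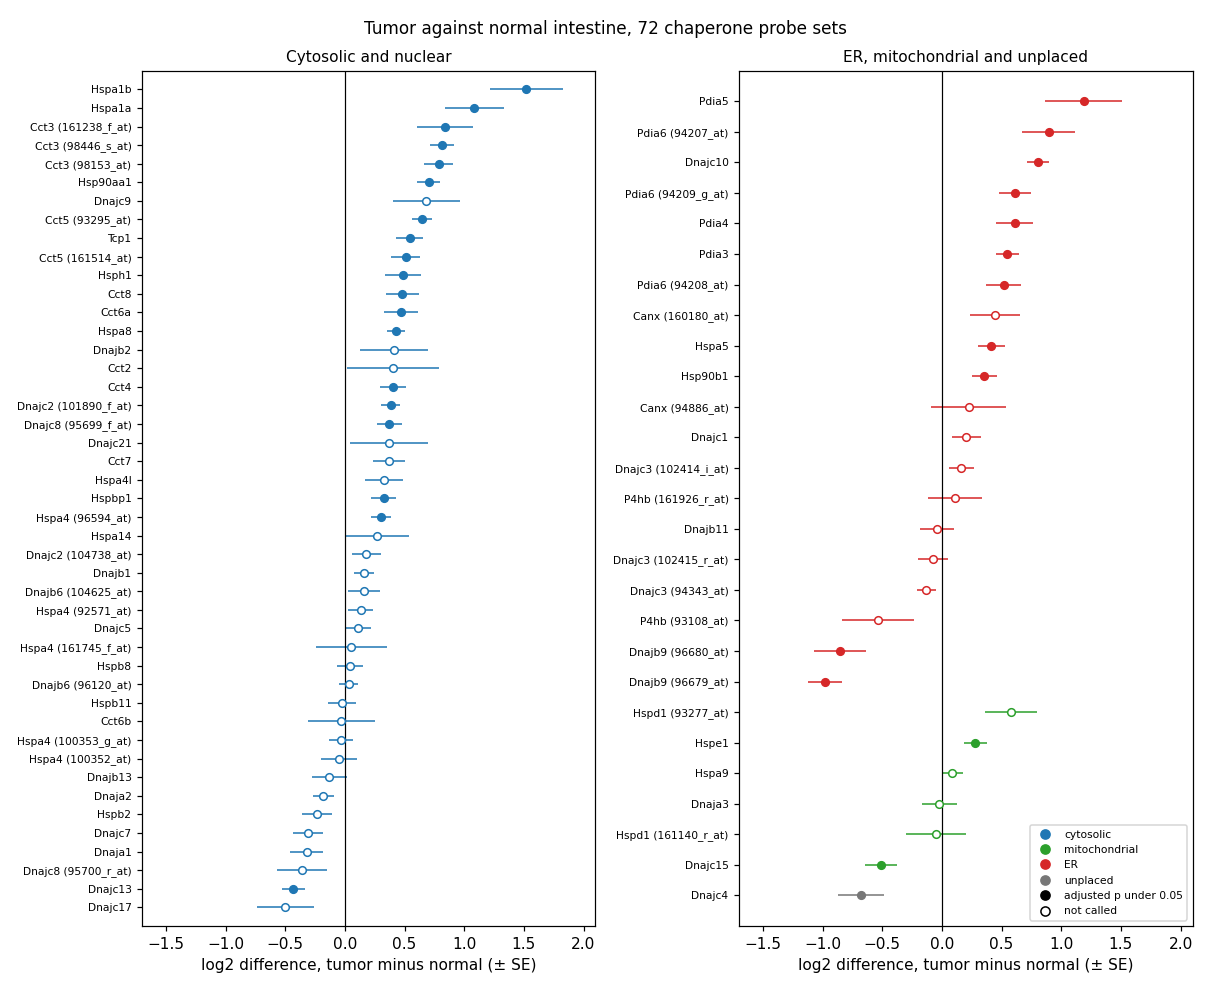
Log2 difference between tumor and normal intestine (horizontal axis, tumor minus normal) for the 72 tested chaperone probe sets, cytosolic and nuclear on the left, ER, mitochondrial and unplaced on the right. Points are limma estimates over 6 arrays per tissue with bars of 1 SE, filled where the adjusted p was under 0.05; 28 filled points lie to the right of 0 and 5 to the left.

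Among the cytosolic Hsp70 genes, 3 of 4 tested probe sets were higher in tumor. Hspa1b, an Hsp70 that cells make on heat shock and other stress, read 48.9, 178 and 378 (lowest, median and highest) on the normal arrays and 246, 481 and 885 on the tumor arrays. Each tumor array was above the normal array of its own code, but the groups overlapped, since the highest normal value, from the wild type sample of diet 2, exceeded the tumor values of 2 arrays. The difference was 1.52 ± 0.30 (2.87-fold, limma adjusted p = 0.00455), with 1 normal array at the floor of its file; without that array it was 1.30. Hspa1a, its near-identical neighbour, read 48.9, 129 and 259.9 in normal intestine and 190.0, 259 and 389 in tumor. It too was higher in 6 of 6 pairs, by 1.08 ± 0.25 (2.12-fold, limma adjusted p = 0.00861), with the same normal array at the file floor.

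The start regions of these genes are shown because the copies are so alike there. Probe sequences were not compared, and whether a probe set takes RNA of both copies was not tested, so their separate values are uncertain. In RefSeq (GRCm38.p6), the 300 bases from 250 before to 50 after the gene start are the same in Hspa1a and Hspa1b at 296 positions and differ at 4. Hspa1b lies on the minus strand, and its window is chr17:34959189-34959488. Capitals mark the letters GAANNTTC, the 2-unit core that heat shock factor is known to recognise, which stand in 7.86% of all 32851 such windows on either strand and in those of 10 of the 55 member genes that have a window.
Hspa1b: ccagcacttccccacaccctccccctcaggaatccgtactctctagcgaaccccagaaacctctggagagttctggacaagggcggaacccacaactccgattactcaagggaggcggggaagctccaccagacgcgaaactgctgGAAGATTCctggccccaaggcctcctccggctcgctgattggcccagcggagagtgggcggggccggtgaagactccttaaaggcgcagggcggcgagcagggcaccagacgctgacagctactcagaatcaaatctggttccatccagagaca

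Hspa8, the Hsp70 that cells make at all times, read 4372, 6375 and 7196 in normal intestine and 6655, 8254 and 9374 in tumor. The difference of 0.43 ± 0.08 (1.35-fold, limma adjusted p = 0.00279) had the same sign in 6 of 6 pairs, although the groups overlapped. It depended on the scaling: with each array scaled to its median it was 0.07 and did not pass. The fourth tested gene of the family, Hspa14, which works on the ribosome, differed by 0.27 ± 0.27 and did not pass. Hsp90aa1, the stress-inducible cytosolic Hsp90, read 1941, 3311 and 4737 in normal intestine and 3014, 5673 and 6856 in tumor. It was higher in every pair, by 0.70 ± 0.10 (1.63-fold, limma adjusted p = 0.000645), while arrays of diet 1 were the lowest of both tissues. Among the 7 Hsp110 probe sets, those of Hsph1 (0.49, limma adjusted p = 0.0326) and 1 of 5 of Hspa4 (0.30, limma adjusted p = 0.0172) were higher, and the other 4 of Hspa4 differed by -0.05 to 0.13. Hspbp1 was higher by 0.32 (limma adjusted p = 0.0402, and 0.0667 with the codes as a block).

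Of all the families, the cytosolic chaperonin had the most probe sets that passed. Of its 12 tested probe sets, 9 were higher in tumor and 0 lower, covering 6 of 9 subunit genes, with a median difference of 0.50. That is 75% higher, where 17% of all features were higher and 16.5% lower. Among the 9, 3 probe sets belong to Cct3 and 2 to Cct5. Cct3 was the subunit with the largest difference, and its 3 probe sets gave nearly the same value, 0.84 ± 0.24, 0.81 ± 0.10 and 0.78 ± 0.12. By the second of these (98446_s_at) it read 835, 983 and 1261 in normal intestine and 1320, 1836 and 1983 in tumor. The groups did not overlap, and the 1.75-fold difference passed with a limma adjusted p of 0.000382.

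Cct5 was higher by 0.65 ± 0.08 and 0.51 ± 0.12 by its 2 probe sets. The first read 1657, 2477 and 2786 in normal intestine and 2631, 3659.7 and 4719.9 in tumor (1.57-fold, limma adjusted p = 0.000421), and only the tumor arrays of diet 1 came down into the range of the normal arrays. Tcp1, the alpha subunit, was higher by 0.54 ± 0.11 (1.46-fold, limma adjusted p = 0.00566) with normal arrays at 185, 269 and 353 and tumor arrays at 267, 401 and 451. These 3 subunits kept their calls by these probe sets with any single array left out.

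The other subunits were closer to the threshold. Cct8 differed by 0.48 ± 0.14 (limma adjusted p = 0.0254), Cct6a by 0.47 ± 0.14 (limma adjusted p = 0.0291) and Cct4 by 0.40 ± 0.11 (limma adjusted p = 0.0200), and all 3 passed. Leaving out single arrays ended the call for Cct6a in 8 of 12 fits, for Cct8 in 6, for the Cct3 probe set 161238_f_at in 3 and for Cct4 in 2, with adjusted p up to 0.0723. With the codes as a block Cct6a did not pass (adjusted p = 0.0512). With median scaling none of the 3 passed, with differences of 0.34 for Cct8, 0.37 for Cct6a and 0.16 for Cct4, and 6 of the 12 probe sets were higher. Cct7 differed by 0.37 ± 0.14 in the same direction in all 6 pairs without passing (limma adjusted p = 0.0637). Cct2 (0.40 ± 0.38) and the testis-type subunit Cct6b (-0.03 ± 0.28) did not pass, and for both the heterozygous normal array of diet 1 was at the floor of the file; without it the Cct2 difference was 0.02.

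**Figure D2:**
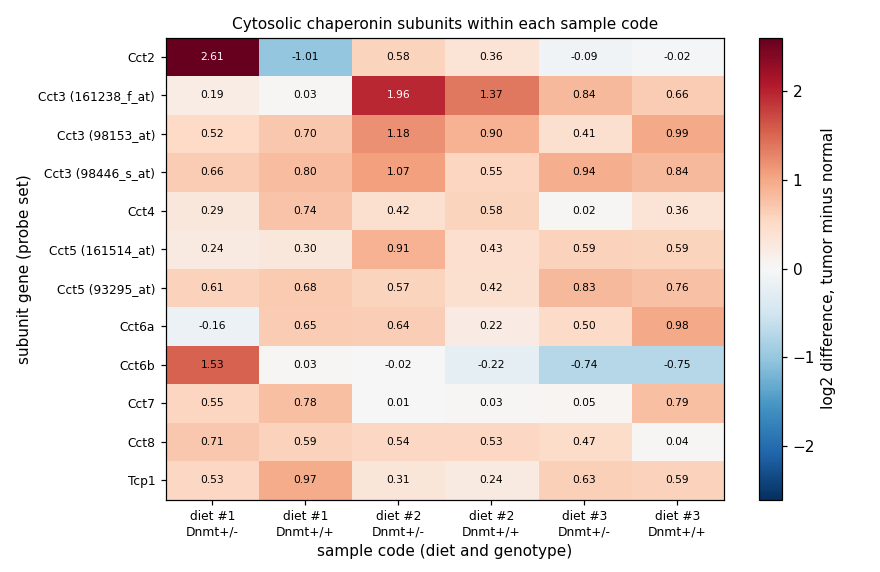
Log2 difference between the tumor and the normal array of each sample code (columns, labelled by diet and Dnmt genotype) for the 12 tested probe sets of the cytosolic chaperonin (rows), with the value printed in each cell and red for higher in tumor. Of the 72 cells, 64 are above 0, and the extremes of 2.61 and -1.01 both belong to Cct2.

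Within single codes the chaperonin probe sets were higher in tumor in 64 of 72 cases. Of the 8 exceptions, 7 were in Cct2 and Cct6b and 1 in Cct6a. The 72 are not separate cases, since Cct3 has 3 of the probe sets, Cct5 has 2, and all share the same 6 code pairs. The share over all features was not counted. The mean log2 level over the 12 probe sets was at most 9.36 on normal arrays and 9.69 to 9.85 on tumor arrays, without overlap. After tissue, diet and genotype were removed from the values, the median correlation between the 12 probe sets was -0.05 over the 12 arrays, pairs of the same gene included. The count of 9 was lower with fewer arrays: 4 of the 12 probe sets passed without the diet 2 arrays, and 5 without its 2 normal arrays alone. Of all features, 9.66% and 11.7% were higher in these fits, against 17% with all 12 arrays.

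Hsp40 proteins hand clients to Hsp70. Of 17 cytosolic Hsp40 probe sets, 2 were higher and 1 lower in tumor, with a median of 0.11. That is 11.8% higher and 5.88% lower, where 17% and 16.5% of all features were. The risers were 1 of 2 probe sets of Dnajc2 (0.38), which works on ribosomes, and 1 of 2 of Dnajc8 (0.37), which is found with the splicing machinery; the other Dnajc8 probe set differed by -0.36 without passing. Dnajc13, an endosomal protein, was lower in tumor (-0.43 ± 0.10, 1.35-fold, limma adjusted p = 0.00784). It read 455, 616 and 767 in normal intestine and 348, 439 and 543 in tumor, lower in 6 of 6 pairs. The best known heat-inducible Hsp40, Dnajb1, differed by 0.16 ± 0.08 (limma adjusted p = 0.164), and Dnaja1 by -0.32 ± 0.14 (limma adjusted p = 0.108). None of the 3 tested small heat shock protein probe sets passed (-0.23 to 0.04), Hspb11 among them. Dnajc4, the unplaced member, was lower in tumor by -0.68 ± 0.19 (limma adjusted p = 0.0234), in the 4 code pairs of diets 2 and 3; the arrays of diet 1 were at the file floor.

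Of 6 tested mitochondrial probe sets 1 was higher and 1 lower (16.7% each, near the 17% and 16.5% of all features), with a median of 0.03. Hspe1, the lid of the mitochondrial chaperonin, read 1430.0, 2024 and 3025 in normal intestine and 1949, 2736 and 3269 in tumor. The groups overlapped widely although each tumor array was above its own normal array. The difference of 0.28 ± 0.09 (1.21-fold, limma adjusted p = 0.0458) passed narrowly: 11 of 12 fits with an array left out did not pass, nor did the fit with the codes as a block (adjusted p = 0.0698), and it was 0.03 with median scaling. Its partner Hspd1, by the brighter probe set (93277_at), differed by 0.58 ± 0.22 without passing (limma adjusted p = 0.0732), and by the other by -0.05 ± 0.25. Hspa9, the mitochondrial Hsp70 that pulls proteins through the inner membrane, read 1972, 2414 and 2847 in normal intestine and 2042, 2468 and 3329 in tumor, a difference of 0.09 ± 0.09 (limma adjusted p = 0.499). Dnajc15, an Hsp40 of the import motor, went the other way: it read 232, 581 and 638 in normal intestine and 220.4, 337 and 392 in tumor, lower in 6 of 6 pairs (-0.51 ± 0.13, 1.42-fold, limma adjusted p = 0.0153). In diet 1 the 2 tissues of Dnajc15 hardly differed, with 241 and 232 in normal intestine and 238 and 220.4 in tumor.

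Hspe1 and Hspd1 are shown at sequence level because they stand head to head: the Hspe1 window overlaps 1 of the 2 Hspd1 windows, on the opposite strand, by 285 bases. It barely reaches the other, which holds no match to the 3-unit heat shock element. The Hspe1 window lies on the plus strand at chr1:55087898-55088197 (GRCm38.p6, RefSeq). Capitals mark 2 overlapping matches to the 3-unit heat shock element GAANNTTCNNGAA on either strand, letters found in 0.603% of all windows and in those of Dnajb6, Hspd1, Hspe1 and Hsph1 among the members.
Hspe1: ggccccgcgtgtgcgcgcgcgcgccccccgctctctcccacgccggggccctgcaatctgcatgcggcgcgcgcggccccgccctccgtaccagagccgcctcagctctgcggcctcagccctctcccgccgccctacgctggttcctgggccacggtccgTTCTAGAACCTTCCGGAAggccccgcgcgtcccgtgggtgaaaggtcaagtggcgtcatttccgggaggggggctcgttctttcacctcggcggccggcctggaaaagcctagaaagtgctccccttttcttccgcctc

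ER members were higher in tumor in 9 of 20 tested probe sets and lower in 2 (45% and 10%, against 17% and 16.5% of all features), with a median of 0.29. The disulfide isomerases made up 6 of the 9. Pdia6 was higher by all 3 of its probe sets, by 0.89 ± 0.22, 0.61 ± 0.13 and 0.52 ± 0.15. By the second (94209_g_at) it read 307, 549.7 and 606 in normal intestine and 557, 757 and 902 in tumor (1.53-fold, limma adjusted p = 0.00647). By the first (94207_at) the groups did not overlap, with normal arrays up to 171 and tumor arrays from 203 (1.86-fold, limma adjusted p = 0.0134), but 1 normal array was at the file floor. Pdia5 had the largest difference of the class, 1.19 ± 0.32 (2.28-fold, limma adjusted p = 0.0194). It read 44.8, 175 and 223 in normal intestine and 179, 350.3 and 489 in tumor; the heterozygous normal array of diet 2 was at the floor, and without it the difference was 0.86.

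Pdia3, which acts on glycoproteins held by calnexin and calreticulin, was higher by 0.55 ± 0.10 (1.46-fold, limma adjusted p = 0.00236) and Pdia4 by 0.61 ± 0.16 (1.52-fold, limma adjusted p = 0.0147). P4hb, the founding disulfide isomerase, gave no call. Its probe sets disagreed: 161926_r_at was at a floor on 4 of 4 diet 1 arrays and read 321 to 2140.2 elsewhere, while 93108_at read 382 to 1409 in diet 1 and 81.1 to 202 elsewhere. Their tissue differences were 0.11 ± 0.23 and -0.54 ± 0.30. Calnexin (Canx) did not pass by either probe set (0.45 ± 0.21 and 0.22 ± 0.32).

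Hspa5 (BiP), the Hsp70 of the ER, read 3034, 4789 and 5535 in normal intestine and 4083, 6729 and 7506 in tumor. Every tumor array was above its own normal array, by 0.41 ± 0.11 overall (1.33-fold, limma adjusted p = 0.0209). Hsp90b1 (GRP94), the Hsp90 of the ER, read 3542, 3923 and 6318 in normal intestine and 4450.3, 5560.5 and 7133 in tumor, a difference of 0.35 ± 0.11 (1.28-fold, limma adjusted p = 0.0297). Both differences nearly vanished with median scaling, 0.03 for Hspa5 and 0.02 for Hsp90b1. With an array left out, Hsp90b1 lost its call in 8 of 12 fits and Hspa5 in 1, that without the heterozygous normal array of diet 2 (0.38, adjusted p = 0.0537).

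The ER Hsp40 genes went in both directions. Dnajc10 (ERdj5), which reduces disulfide bonds of misfolded proteins, read 508, 719.8 and 769 in normal intestine and 954, 1239 and 1438 in tumor. No tumor array reached down to the normal ones, and the difference of 0.81 ± 0.09 (1.75-fold, limma adjusted p = 0.000240) was the one of smallest adjusted p among the members. Dnajb9 (ERdj4), a partner of Hspa5 that is induced by the unfolded protein response, was lower by both of its probe sets. By 96679_at it read 270.3, 443 and 662 in normal intestine and 149, 236 and 343 in tumor, lower in 6 of 6 pairs (-0.98 ± 0.14, 1.97-fold, limma adjusted p = 0.000854). The other probe set differed by -0.86 ± 0.22 (1.81-fold, limma adjusted p = 0.0139). Dnajb11, Dnajc1 and the 3 probe sets of Dnajc3 differed by -0.13 to 0.20 and did not pass.

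The start windows of Hspa5, Hsp90b1 and Pdia6 are shown because these genes were all higher in tumor and share the letters of an element that no cytosolic or mitochondrial member holds in its window. The ER stress response element, searched as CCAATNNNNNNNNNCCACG on both strands, stood in the windows of 6 of 14 ER genes (Calr, Canx, Dnajc3, Hsp90b1, Hspa5 and Pdia6). It stood in 0 of 36 cytosolic and 0 of 4 mitochondrial genes with a window, and in 0.119% of all windows. Of these 6 genes, 3 passed in tumor and were higher, Canx and Dnajc3 did not pass, and Calr was not measured; Dnajc10, Pdia3, Pdia4 and Pdia5, which were higher, lack these letters in their window. A match of letters is a description and not a test of the factor. Capitals mark the element, which Hsp90b1 holds at 2 places. The windows, from RefSeq GRCm38.p6, are chr2:34771840-34772139 (plus strand) for Hspa5, chr10:86705395-86705694 (minus strand) for Hsp90b1 and chr12:17266339-17266638 (plus strand) for Pdia6.
Hspa5: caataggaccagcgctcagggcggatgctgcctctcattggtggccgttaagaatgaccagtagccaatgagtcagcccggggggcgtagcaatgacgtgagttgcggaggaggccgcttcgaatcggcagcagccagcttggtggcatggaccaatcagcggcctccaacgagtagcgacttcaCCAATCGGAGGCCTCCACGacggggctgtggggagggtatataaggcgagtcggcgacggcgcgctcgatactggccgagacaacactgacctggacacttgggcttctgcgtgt
Hsp90b1: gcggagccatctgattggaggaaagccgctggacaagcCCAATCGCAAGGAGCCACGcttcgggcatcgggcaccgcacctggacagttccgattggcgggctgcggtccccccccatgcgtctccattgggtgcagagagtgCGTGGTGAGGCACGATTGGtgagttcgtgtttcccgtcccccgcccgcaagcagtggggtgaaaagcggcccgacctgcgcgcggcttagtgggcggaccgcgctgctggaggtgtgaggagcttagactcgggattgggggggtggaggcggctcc
Pdia6: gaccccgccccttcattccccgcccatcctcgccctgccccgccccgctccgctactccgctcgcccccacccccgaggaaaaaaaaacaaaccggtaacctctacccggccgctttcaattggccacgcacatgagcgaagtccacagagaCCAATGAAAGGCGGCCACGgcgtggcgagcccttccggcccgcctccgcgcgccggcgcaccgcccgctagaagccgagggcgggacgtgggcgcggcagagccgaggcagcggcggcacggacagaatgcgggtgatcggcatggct

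**Figure D3:**
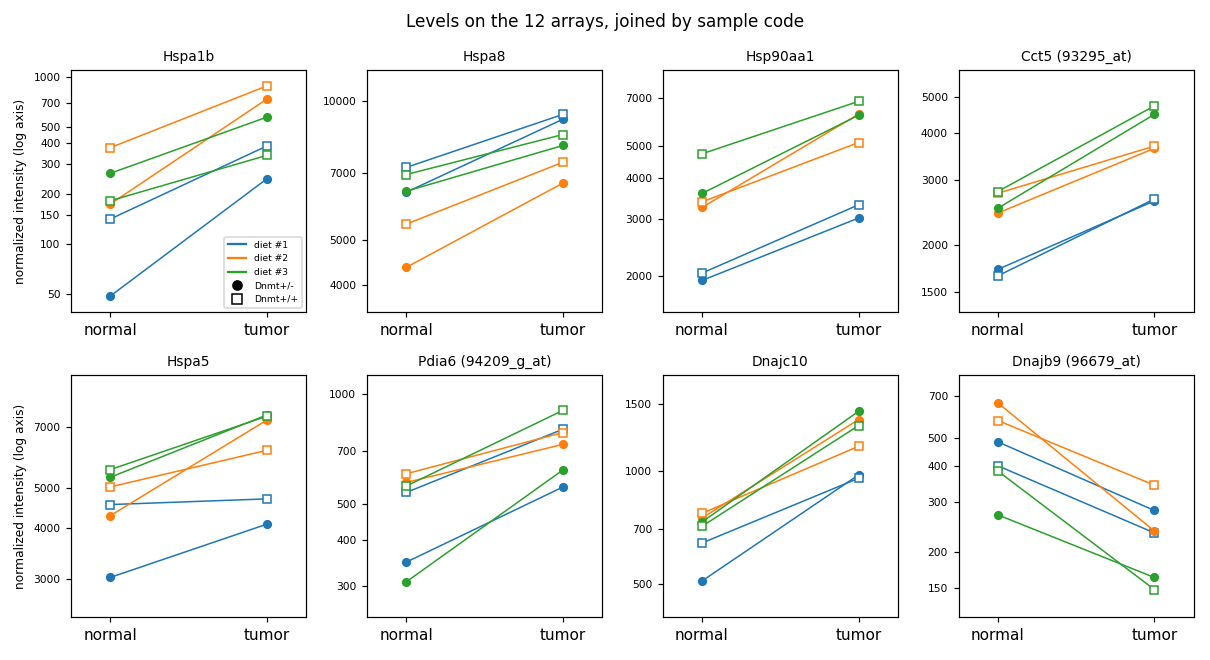
Normalized intensity (log axis) of 8 members on the 12 arrays, normal intestine on the left and tumor on the right of each panel, with lines joining the arrays of a sample code, colours for diets and symbols for Dnmt genotype. All lines rise in 7 panels and all fall for Dnajb9, and for Hspa1b the lowest point, at 48.9, is an array at the file floor.

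Genes that work with the chaperones were counted from lists drawn up by their known roles; 17% of all features were higher in tumor and 16.5% lower. Of 18 tested genes for heat shock factors and co-chaperones, 7 were higher and 0 lower (median 0.25). They included Stip1, which links Hsp70 to Hsp90 (0.86, 1.81-fold), the Hsp90-bound isomerase Ppid (0.61) and the exchange factor Bag3 (0.57). Of 11 genes for prefoldin and tubulin cofactors, which feed the cytosolic chaperonin, 3 were higher and 1 lower (median 0.07), with Uri1 at 0.56, Pfdn2 at 0.40 (adjusted p = 0.0647 with the codes as a block) and Pdcl3, a phosducin-like partner of that chaperonin, at -0.64. Of 46 genes of the unfolded protein response and of ER folding, 8 were higher, a share close to that of all features, and 4 lower (median 0.17). Agr2, a disulfide isomerase of goblet cells, was 2.61-fold and the retrieval receptor gene Kdelr3 2.00-fold higher, and the ER oxidase gene Ero1b was 3.51-fold lower. Of 22 mitochondrial import and protease genes 1 was higher and 2 lower (median -0.04), Tomm20 at 0.70, Tomm70a at -0.72 and Timm8b at -0.44 (adjusted p = 0.0624 with the codes as a block).

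Cell type markers differed between the tissues as well. The summed level of 13 epithelial genes was 87236 to 110594 on normal arrays and 137778 to 152348 on tumor arrays, and that of 10 goblet and Paneth cell genes 69662 to 102755 against 111754 to 127093. Sums of fibroblast (9908 to 13656 against 15256 to 20677) and of myeloid and mast cell genes (5043 to 9292 against 18021 to 35295) were higher in tumor without overlap too. Those of T and NK cell (1701 to 3055 against 926 to 1611) and adipose genes (1726 to 2727 against 1069 to 1405) were lower without overlap, and smooth muscle and B cell sums overlapped. Of the tested genes of these lists, 6 of 13 epithelial, 6 of 10 goblet and Paneth cell, 8 of 14 fibroblast and 6 of 9 myeloid and mast cell genes were higher, while 2 of those 9, the macrophage genes Cd68 and Csf1r, were lower, and 3 of 4 T and NK cell and 5 of 6 adipose genes were lower. None was at the floor on all 12 arrays. Lyz2 is counted in both the goblet and Paneth cell list and the myeloid and mast cell list. Agr2 is in the goblet and Paneth cell list and in that of ER folding, and bright genes weigh most in a sum. These sums move with the tissue difference of the chaperones, and their part in it was not tested. The mean log2 level of the ER members was 9.14 and 9.33 on the 2 normal arrays rich in pancreas transcripts, 9.12 and 9.38 on the normal arrays of diet 3 and 8.75 and 8.95 on those of diet 1, where dim members were at the file floor. Single ER probe sets were high on the pancreas-rich arrays. Dnajb9 (96679_at) read 662 and 575 there, while the other 4 normal arrays lay between 270.3 and 485. By 96680_at Dnajb9 read 994 and 1035 there, below the 1274 and 1475 of the diet 3 normal arrays. P4hb (161926_r_at) read 1370.3 and 2140.2, with no other normal array above 623 and those of diet 1 at a floor. It also read 1612 and 1174 on the tumor arrays of diet 2. By 93108_at P4hb was lower on the pancreas-rich arrays (88.8 and 103) than on any other normal array. The part of pancreas tissue in these levels was not tested. Without the 2 pancreas-rich arrays, 17 members were higher and 3 lower (23.6% higher, where 11.7% of all features were), and the difference of Dnajb9 (96679_at) was -0.91.

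How many members rose and fell varied with the scaling and among the diets. With median scaling 17 members were higher and 7 lower, where 932 features were higher and 1738 lower in all and the median feature shifted by -0.10; on the values as deposited it was 26 and 3 of the members and 1494 and 818 of all features, with a shift of 0.13. The median member difference was 0.08 and 0.31 under these scalings, above that of all features under both. Fitted within a single diet on 4 arrays, 0 members passed in diet 1 (0 features of 7453 did), 4 were higher and 1 lower in diet 2 (1058 features passed), and 0 passed in diet 3 (547 features passed). At an unadjusted p under 0.05 there were 21, 26 and 30 members in diets 1, 2 and 3, or 29.2%, 36.1% and 41.7%, against 21%, 37.8% and 31% of all features. The median member difference was 0.22, 0.26 and 0.16 in diets 1, 2 and 3.

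Of the 12 genes with more than 1 tested probe set, 7 had the same sign in all of them and 5 did not (Dnajc3, Dnajc8, Hspa4, Hspd1 and P4hb). No gene had probe sets that passed in opposite directions.

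The genotype comparison asked whether chaperone transcripts differed in Dnmt+/- tissue. None of the 72 probe sets passed with the codes as a random block, and 8 had an unadjusted p under 0.05. Over all features 1 of 7453 passed (0.0134%) and 497 had an unadjusted p under 0.05 (6.67%). The members of smallest p were Pdia6 (94209_g_at, -0.46 ± 0.12), Tcp1 (-0.32 ± 0.10) and Hspa4 (100353_g_at, -0.27 ± 0.09), heterozygous minus wild type, each with a limma adjusted p of 0.719. In all 6 comparisons matched for tissue and diet these 3 probe sets were lower in the heterozygous array. Tcp1, for example, read 185, 297 and 249 in heterozygous and 229.6, 353 and 289.8 in wild type normal intestine of diets 1, 2 and 3, and 267, 367 and 384 against 451, 418 and 436 in tumor. Of the 72 differences 50 were below 0 and 22 above, where 3579 of 7453 were above 0 over all features. The median was -0.10 against -0.01 over all features. In diet 1 the heterozygous normal array had 13 tested members at the file floor and the wild type normal array 5, which bears on these differences. Since normal and tumor arrays have codes in common, the matched comparisons rest on 3 pairs of codes.

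Whether the tissue difference itself depended on genotype was asked with an interaction term. In limma 0 members passed, 2 had an unadjusted p under 0.05, and over all features 0 of 7453 passed (0%; 171 had an unadjusted p under 0.05). The smallest p belonged to Hspa4l, Hspa1a and Dnajc7, whose tissue differences in heterozygous and wild type samples differed by 0.73 ± 0.22, 1.15 ± 0.37 and -0.50 ± 0.22, heterozygous minus wild type (limma adjusted p = 1 each). Hspa1a went from 48.9 to 204, 149 to 389 and 107 to 308 in the heterozygous codes of diets 1, 2 and 3, where the 48.9 is the floor of the file and bears on the interaction. In the wild type codes the values were 137 and 190.0, 259.9 and 304, and 121 and 215.

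The diets were compared between 2 and 3, whose files share a format. Of the 72 members 8 passed, 3 higher and 5 lower in diet 3 (limma with the codes as a random block). Over all features 9.07% passed, 5.29% higher and 3.78% lower, so the members' share was near that of all features. The 8 had the same direction in 4 of 4 matched comparisons of the same tissue and genotype, which again share codes between tissues.

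Pdia3 had the smallest adjusted p of them. In diet 2 it read 1289.9 and 1207 in normal intestine and 2024 and 1940.3 in tumor (heterozygous, then wild type), and in diet 3 2067 and 2791 in normal intestine and 3266 and 3745 in tumor. Every array of diet 3 was above every array of diet 2, by 0.88 ± 0.11 (1.84-fold, limma adjusted p = 0.00448). Dnajc13 (0.53 ± 0.11, limma adjusted p = 0.0202) and Hspa8 (0.34 ± 0.09, limma adjusted p = 0.0376) were the other members higher in diet 3. Hspa8 read 4372 and 5423 in normal intestine and 6655 and 7384 in tumor of diet 2, and 6391 and 6946 in normal intestine and 8028 and 8479 in tumor of diet 3.

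The largest decrease was in P4hb (161926_r_at), which read 1370.3 and 2140.2 in normal intestine and 1612 and 1174 in tumor of diet 2, and 321 and 623 in normal intestine and 554 and 902 in tumor of diet 3. The groups did not overlap, and the difference was -1.45 ± 0.25 (2.73-fold, limma adjusted p = 0.0119), but the gene's other probe set differed by 0.55 ± 0.33 the other way without passing. Dnajb9 (96679_at) was lower in diet 3 by -0.90 ± 0.16 (1.87-fold, limma adjusted p = 0.0115), with 662 and 575 in normal intestine and 237 and 343 in tumor of diet 2 and 270.3 and 384 in normal intestine and 164 and 149 in tumor of diet 3. Its other probe set differed by -0.06 ± 0.24. Dnajc17, a nuclear Hsp40 (-1.13), Hspa4 by 1 of 5 probe sets (100353_g_at, -0.50) and Hspbp1 (-0.49) were the other decreases. Without the block, whose negative correlation makes calls between codes easier, Pdia3, P4hb, Dnajc13 and Dnajb9 passed, and Dnajc17, Hspa4, Hspbp1 and Hspa8 did not. The pancreas-rich normal arrays both belong to diet 2, and their part in these differences was not tested.

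**Figure D4:**
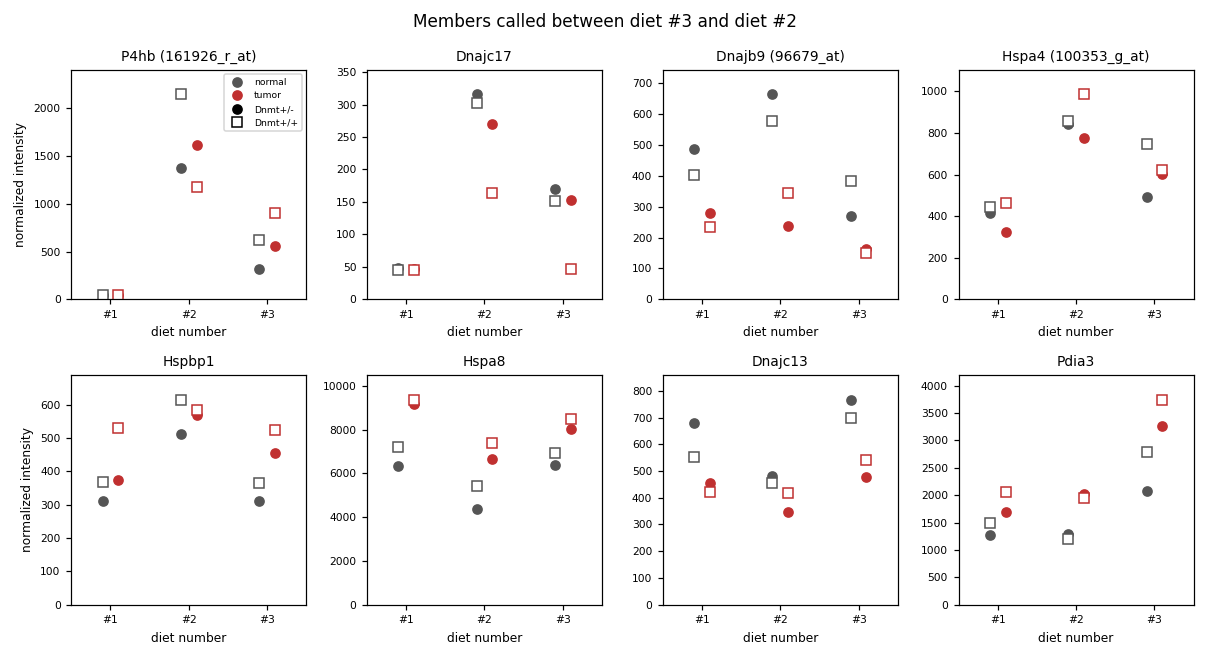
Normalized intensity of the 8 members that differed between diets 3 and 2, by diet number, with normal arrays in grey and tumor arrays in red and filled or open symbols for Dnmt genotype. Pdia3 lies highest in diet 3, and P4hb (161926_r_at) and Dnajc17 lie at a floor on the arrays of diet 1, which have another file format.

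The count of diet calls varied with the samples and settings. It ranged from 2 to 10 with single arrays left out, the 2 being without the heterozygous normal array of diet 3. It was 4 without the block, 18 without the diet 1 arrays and 0 on the values as deposited. The share of all features was counted for the main fit only (9.07%). Whether these counts moved apart from those of all features is therefore not known.

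Whether the tissue difference depended on diet, 2 against 3, gave 0 called members and 3 at an unadjusted p under 0.05, where 0.322% of all features passed (24 features; 752 had an unadjusted p under 0.05). The smallest p belonged to Hspd1 (93277_at), Cct3 (161238_f_at) and Hspbp1. Hspd1 rose in diet 2 from 3854 to 10097 in the heterozygous and from 4026 to 10180.3 in the wild type code, while in diet 3 it went from 7227 to 7878 and from 7101 to 5526. Within diet 2 the tissue difference was 1.36 and passed (limma adjusted p = 0.0256), and within diet 3 it was -0.13. The interaction was -1.48 ± 0.25 and did not pass over all features (limma adjusted p = 0.0989), though it did under 5 of the alternatives. Cct3 (161238_f_at) gave -0.91 ± 0.28 and Hspbp1 0.50 ± 0.20 (limma adjusted p = 0.342 and 0.467).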

How the data were processed

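The deposited intensity of each probe set, on a linear scale, was taken from the authors' value table, per the labels 1 value per array of total RNA; how probes were summarised into it is not given in these sources. After removal of 66 control probe sets, the other 12422 were quantile normalized, raised to the 20th percentile (44.8) and log2 transformed, and the dimmest 40% by mean signal were dropped, leaving 7453. Differences were tested with limma 3.58.1 in R 4.3.3 (lmFit, eBayes) over all of them, with Benjamini-Hochberg adjustment and a threshold of 0.05. Tissue was fitted with diet and genotype as terms on 12 arrays. Genotype, diet and the interactions were fitted with codes as random blocks by duplicateCorrelation (correlation -0.15 for genotype and diet; below 0, it makes calls between codes easier). The fit was tested on simulated data. Precision is limited by the number of arrays.

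The codes pair the arrays: within codes, departures from the mean of each tissue had correlations of 0.48 to 0.68. Each code is a single combination of diet and genotype, so anything else a code shares cannot be told apart from these. Once diet and genotype were removed the correlations were -0.56 to -0.38. With so few codes that removal itself pushes them below 0, and they do not show what the codes share. The tissue fit was therefore repeated with codes as a block. No array had a correlation above 0.981 with another of its tissue. Members were matched to RefSeq (GRCm38.p6) by Entrez ID, 90 of 90, with 0 symbols changed; 55 of 63 genes had a start window.

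Members, lists and tests were chosen with earlier results of these data known. Genes described in full for tissue were the 6 largest called differences of each class, 12 chaperones chosen by name and every chaperonin subunit, and for the other comparisons the called members (at most 5 each way) or the 3 of smallest p; of each pathway list the 3 largest called. Other members, such as Dnajc13, Dnajc4, Pdia3 and Pdia4 for tissue, were named after their values were seen. Alternatives were median scaling, no normalization, other floors and filters, the brightest probe set per gene, trended robust variances, blocks, single diets and arrays left out.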

Additional observations from a re-analysis of the deposited data

Results flagged for a closer look

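For the 33 probe sets described in full, the 6 arrays of each tissue were searched for a lowest or highest array whose gap to the next was too large a part of the range of log2 values by Dixon's ratio. Of 66 groups 7 held such an array, and chance alone gives about 1 in 20 groups. The heterozygous normal array of diet 1 was the lowest for Cct2, Cct6b and Pdia6 (94207_at), at 48.9 each, where the next normal array read 241, 129 and 130.0, and all 3 values are the floor of its file. The same array was the highest normal array for Canx (160180_at), at 626 against 267 for the next. For Pdia5 the heterozygous normal array of diet 2 read 44.8, the floor of the analysis, against 165 for the next, and the wild type tumor array of diet 2 read 179 against 344. The wild type tumor array of diet 1 read 115 for Canx (94886_at), against 399 for the next tumor array.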

How the results depend on the processing

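Of 910 alternative values for the 33 probe sets described in full, 732 kept their direction and their side of the threshold, 144 no longer passed, 12 newly passed and 22 changed sign, all 22 in probe sets that had not passed. With median scaling 17 members were higher. On the values as deposited 3 members were lower, and 0 passed for diet. With the brightest probe set per gene, or without the diet 1 arrays, 1 ER member was lower. Without the diet 2 arrays 17 members passed (14 higher, 3 lower), and 4 chaperonin probe sets were higher. Without the 2 normal arrays of diet 2, an alternative chosen after seeing the data, 20 members passed (17 higher, 3 lower). There 5 chaperonin probe sets and 6 ER members were higher. Over all features 1433 and 1758 passed in these fits, against 2497 with all 12 arrays. Within diets 1 and 3, 0 members passed in either direction, in the chaperonin or in the ER; within diet 2, 5 passed (4 higher, 1 lower; 2 chaperonin probe sets, 0 ER members higher and 0 lower).

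With the codes as a fixed replicate block 25 members were higher and 5 lower, and with the codes as a random block 27 and 5. Those higher were 34.7% and 37.5% of the members, against 15.5% and 16% of all features. The fixed block ended the calls of Cct6a, Hspe1 and Hspbp1 and no other call among the members. Without the replicate block 4 members passed for diet, and 18 did without the diet 1 arrays, with no share of all features counted for these fits. The interaction of tissue with diet gave 1 member, Hspd1, with median scaling, as deposited, with the floor at the 40th percentile, with the lowest 60% removed and with trended robust variances.

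With single arrays left out, 23 to 31 members passed for tissue (19 to 26 higher, 4 to 6 lower; 6 to 9 chaperonin probe sets and 7 to 9 ER members higher, 2 to 3 ER members lower), 2 to 10 for diet and 0 for genotype and the interactions. For tissue, 26.4% to 36.1% of the members were higher in these fits, against 14% to 16.4% of all features. Calls lost to a single array include Cct4 (without the heterozygous normal or the wild type tumor array of diet 2) and Cct3 by 161238_f_at (without the wild type normal or either tumor array of diet 2).

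The largest in size of the values that changed sign was -0.30, in P4hb within diet 2. P4hb (161926_r_at) differed by -0.025 with median scaling, -0.30 within diet 2 and -0.067 to 0.27 with arrays left out. Hspa9 differed by -0.17 with median scaling. Hspd1 (161140_r_at) differed by 0.11 as deposited, 0.11 with the floor at the 40th percentile, 0.17 within diet 1 and -0.19 to 0.19 with arrays left out; by 93277_at Hspd1 differed by -0.13 within diet 3. Canx (94886_at) ranged from -0.066 to 0.48 and Cct6b from -0.33 to 0.11 with arrays left out. Cct6b differed by 0.0028 without diet 2, 0.014 without its 2 normal arrays and 0.12 within diet 1, and Cct2 by -0.058 within diet 3.

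The floor of the diet 1 files limits the dim members, since 4 to 13 of the 72 tested probe sets were at it on each of those arrays. Within a single diet the fit rests on 4 arrays. The causes of these shifts were not tested.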
